A study of Mus musculus with 12 samples.

Results

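The HoxC cluster of the mouse, with the stretch of chromosome 15 that flanks it beyond Hoxc13, was examined for H3K27me3 in epithelial cells of the small intestine. H3K27me3 is the trimethylation of lysine 27 of histone H3, measured here by chromatin immunoprecipitation and sequencing (ChIP-seq). The window ran from 102680001 to 102870000 on chromosome 15 of mm9. Its flank, from 102680001 to 102750000, spanned 70 kb, and its cluster part, from 102750001 to 102870000, spanned 120 kb, with Hoxc13 at the low and Hoxc4 at the high coordinates. The members were all deposited islands, that is runs of enriched 200 bp grid windows, that overlapped this window in the lists of 8 ChIP libraries. They numbered 30 of 81097 islands in all. No gene annotation of mm9 was used, so an island is placed by its coordinates and by the side of the cluster it lies on, and the position of each gene inside the cluster part is not given.

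The 8 libraries came from 4 populations with 2 libraries each, described by the submitters as biological duplicates, all from mice of a mixed C57BL/6 CD1 background. The E12.5 and E14.5 libraries were made from EpCAM-positive, CD31- and CD45-negative epithelium sorted from small intestines of embryos at embryonic days E12.5 and E14.5, for which no transgene is named. The adult stem cells (ISC), sorted for high Lgr5-EGFP, and the adult enterocytes (AE), sorted as EpCAM-positive, CD31- and CD45-negative, both came from Lgr5EGFP-Cre-ERT males at postnatal day 60 and so shared that allele. The EGFP of that allele follows Lgr5, a gene of the dividing stem cells at the crypt base, and whether animals were pooled is not stated. Each population also had 1 input library, which enters only as the control reads in the lists. The cell types could not be checked against marker genes, since the lists hold no expression values.

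Hox genes encode homeodomain transcription factors that give cells their position along the body axis. In each cluster they lie in the order in which they are used, and HoxC runs from a group 4 gene at its anterior end to a group 13 gene at its posterior end. Polycomb repressive complex 2 places H3K27me3, and silent Hox clusters are textbook cases of a mark that runs over a whole gene cluster rather than a single promoter. In the gut, Hox genes are best known for patterning the mesoderm.

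In RefSeq order the cluster reads Hoxc13, Hoxc12, Hotair, Hoxc11, Hoxc10, Mir196a-2, Hoxc9, Hoxc8, Hoxc6, Hoxc5, Mir615 and Hoxc4, with the noncoding RNA genes Gm36878 next to Hoxc9 and Gm29905 between Hoxc8 and Hoxc6. The nearest protein-coding neighbours are Calcoco1 beyond Hoxc13 and Smug1 beyond Hoxc4. The noncoding RNA genes Gm36510, Gm36560 and Cistr lie between Calcoco1 and Hoxc13. Gm30528, Gm28876 and D930007P13Rik lie between Hoxc4 and Smug1. This order comes from another mouse assembly (GRCm38.p6) and gives names only.

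The 2 microRNA genes of the cluster are shown because they lie among the Hox genes in gene order and because miR-196 is known to target Hox transcripts. The mature sequences are those of RefSeq (GRCm38.p6), written 5′ to 3′ with the seed, bases 2 to 8, in capitals.
mmu-miR-196a-5p: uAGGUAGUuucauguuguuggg
mmu-miR-196a-2-3p: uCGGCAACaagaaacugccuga
mmu-miR-615-5p: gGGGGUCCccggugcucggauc
mmu-miR-615-3p: uCCGAGCCugggucucccucuu
The 4 seeds differ from one another. Of 1679 mature names in the table, mmu-miR-196b-5p was the only other one with the miR-196a-5p seed AGGUAGU, and no other name shared any of the remaining 3 seeds.

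Of the 9 Hoxc genes, only Hoxc4 had an entry in the RefSeq promoter table. Its 250 bases upstream of the start (GRCm38.p6, chromosome 15, plus strand) are shown for that reason. Each CpG, the dinucleotide whose density marks the promoters on which mammalian Polycomb complexes are found, is in capitals.
Hoxc4 upstream: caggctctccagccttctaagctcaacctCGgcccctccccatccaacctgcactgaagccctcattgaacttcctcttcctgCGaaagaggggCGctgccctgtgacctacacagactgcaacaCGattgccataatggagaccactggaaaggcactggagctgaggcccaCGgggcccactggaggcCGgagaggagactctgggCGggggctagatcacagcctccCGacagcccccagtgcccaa
It holds 8 CpG at 62.0% C plus G, with an observed over expected ratio of 0.340. The median of the 32851 upstream sequences in the table was 6 CpG and a ratio of 0.373, and 43.0% of them held at least 8 CpG. Whether this start lies inside or outside the islands described here is not given, since its mm9 position was not used.

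The lists differed in extent, and this bears on every comparison between them. They held 6171 to 17407 islands and covered 60.8 to 109 Mb, except for ISC replicate 1 with 241 Mb. ChIP reads inside islands numbered 1171968 to 6627853 per library. Reads outside islands are not listed, so the total depth of a library is unknown. Replicates share a control, so the deposited counts and folds give their relative size: replicate 1 was 0.928 (E12.5), 1.63 (E14.5), 1.09 (ISC) and 1.68 times (AE) the size of replicate 2. The ISC lists of 241 and 60.8 Mb thus came from libraries of similar size. A stretch outside the islands was not called, which does not show that the mark was absent. Fold means ChIP reads per control read, scaled to the sizes of both libraries, as the authors deposited it for each island. It is used to describe islands within a list. Median folds ran from 1.38 to 1.67. Intervals of folds are 95% exact (Clopper-Pearson) intervals from the 2 read counts and cover counting error only.

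Nearly all of the cluster part lay inside H3K27me3 islands in every population. Islands covered 90.3% (replicate 1) and 95.3% (replicate 2) of it at E12.5. Both E14.5 libraries covered 100%. The ISC libraries covered 100% and 99.0%, and the AE libraries 100% and 97.2%. In E14.5 replicates 1 and 2, ISC replicate 1 and AE replicate 1 every Hoxc gene from Hoxc13 to Hoxc4 therefore lay inside the mark, whatever its exact position. The other 4 libraries left 11.6, 5.6, 1.2 and 3.4 kb of the cluster part outside islands (E12.5 replicates 1 and 2, ISC replicate 2, AE replicate 2). All 8 libraries covered 105.0 of the 120 kb, or 87.5%, and the rest was covered in 7 (8.2 kb) or 6 (6.8 kb) of them. Over all lists, 2.96% of the 200 bp windows called in any library were called in all 8. The cluster part thus stood far above that share, and its choice with earlier results known leaves this a description.

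The length common to all 8 libraries lay in few pieces. The longest, 68.0 kb from 102775601 to 102843600, was the longest of 1676 such stretches in the genome. Stretches of 56.6 kb on chromosome 11 and 50.0 kb on chromosome 6 followed it in rank. The next in the HoxC window, 31.4 kb from 102743001 to 102774400, ranked 12. It ran across the line between flank and cluster on the Hoxc13 side. Only 1.2 kb parted it from the longest. Toward Hoxc4, a piece of 7.0 kb (102845201 to 102852200) and one of 5.6 kb (102854401 to 102860000) followed. The flank held 3 further pieces, of 6.2, 1.6 and 2.0 kb, all within 25.2 kb of the cluster part. No stretch beyond 25.2 kb into the flank was common to all libraries.

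**Figure D1:**
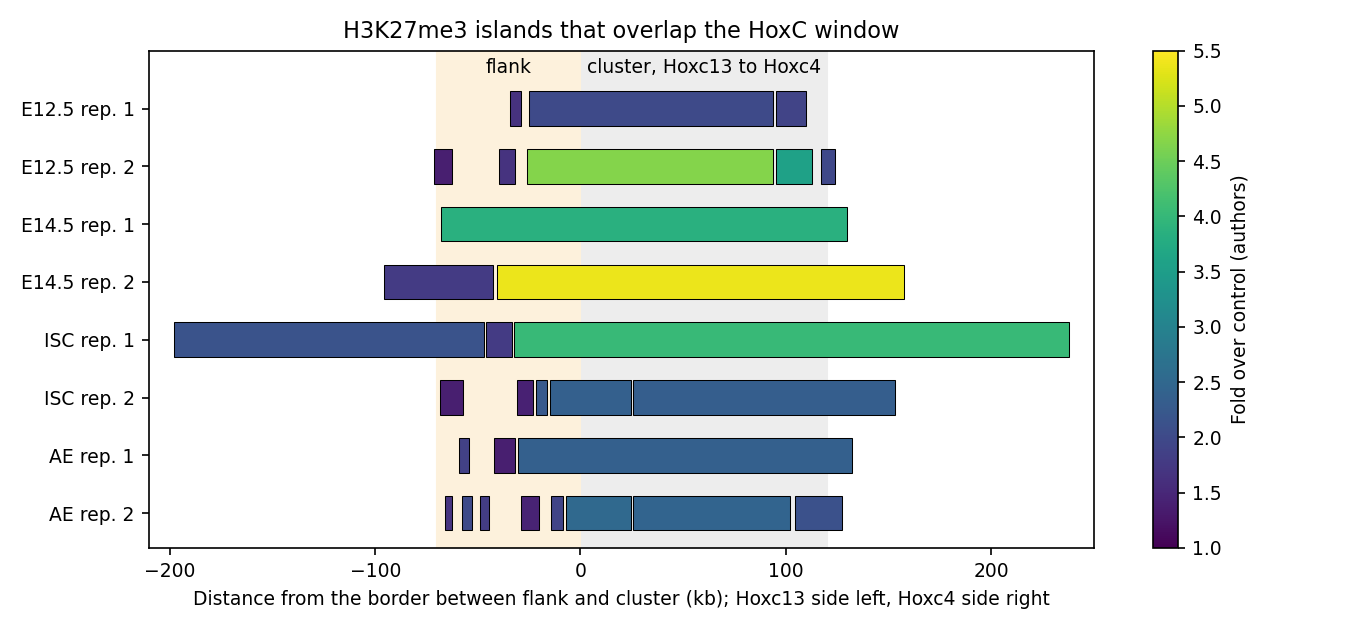
Islands overlapping the HoxC window in the 8 libraries, drawn to scale along the distance in kb from the line between flank (orange background) and cluster part (grey background); colour gives the authors' fold over control. Every library fills nearly all of the cluster part, whereas the flank is filled in both E14.5 libraries and ISC replicate 1 and patchy in the other libraries.

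The islands over the cluster were among the longest and the more enriched of each list. The main island, the one with the largest overlap with the cluster part, was 118.8 and 120.0 kb long in the E12.5 pair of libraries, 197.4 and 198.0 kb in the E14.5 pair, 270.2 and 127.4 kb in the ISC pair, and 162.6 and 76.6 kb in the AE pair. By length it ranked 1 in 5 lists, 2 in E12.5 replicate 2 and ISC replicate 2, and 7 in AE replicate 2, where the cluster was split among 3 islands. By ChIP reads it ranked between 2 and 7 in all lists. Its fold, in the same order, was 2.01 and 4.67, then 3.85 and 5.37, then 4.03 and 2.32, then 2.36 and 2.43. The replicates of E12.5 and of ISC differed in fold by more than those of E14.5 and AE. These folds stood at percentiles from 95.9 (AE replicate 1) to 99.8 (ISC replicate 1) of their own lists. Short islands reach higher folds. Among islands of 50 kb or more, few had a higher fold: 2 of 9 and 2 of 26 (E12.5), 6 of 53 and 4 of 91 (E14.5), 4 of 333 and 2 of 14 (ISC), and 1 of 63 and 0 of 44 (AE).

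**Figure D2:**
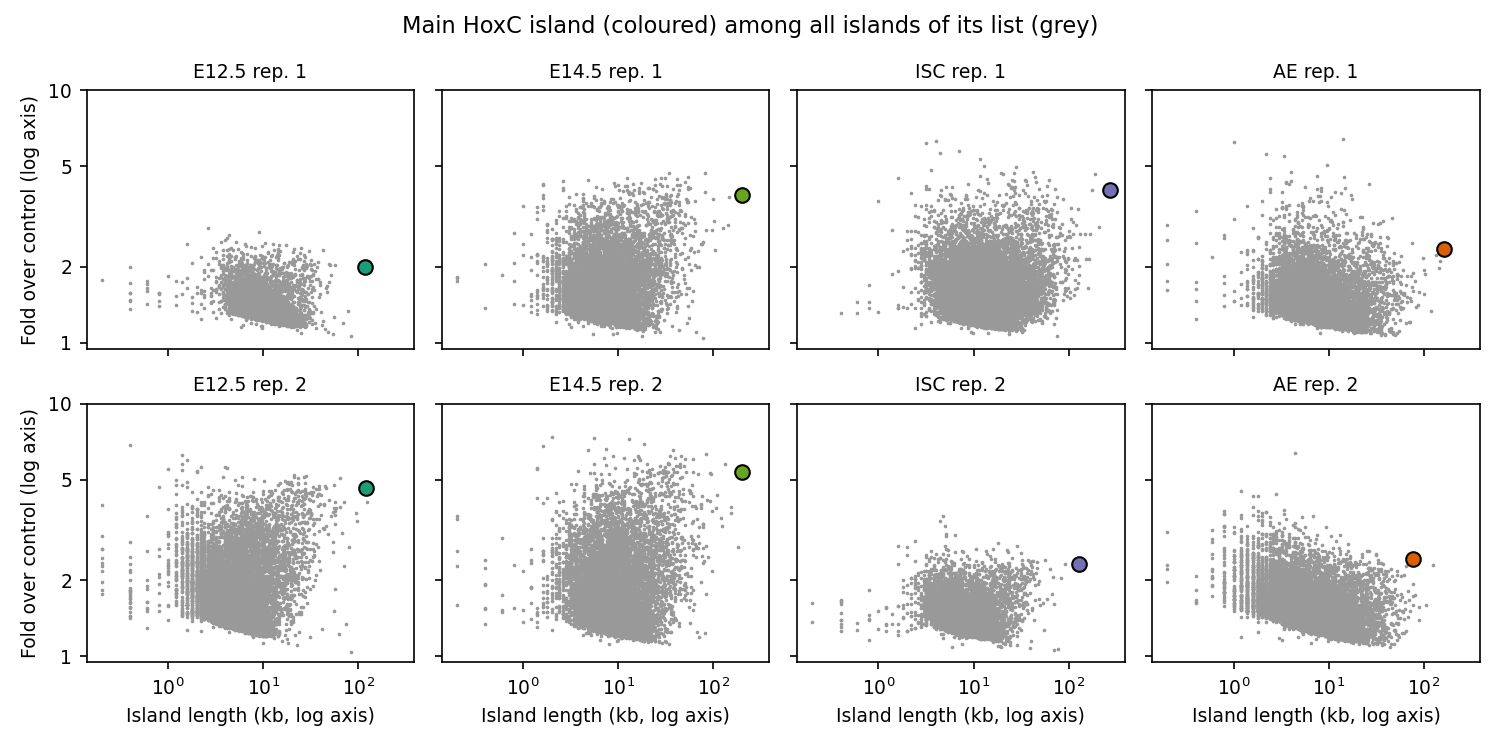
Each panel plots every island of 1 library as a grey point, with its length in kb and the authors' fold over control, both on log axes; the coloured point is the main HoxC island. It sits at or near the far right of its panel, with 118.8 to 270.2 kb in 7 libraries and 76.6 kb in AE replicate 2.

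Relative to the median fold of its own list, the main island was 1.45 and 2.82 times as enriched (E12.5), 2.46 and 3.22 times (E14.5), 2.76 and 1.61 times (ISC), and 1.64 and 1.60 times (AE). The AE replicates were close, and the E12.5 and ISC replicates were far apart. Embryonic libraries averaged 2.49 ± 0.757 (SD, n = 4) and adult libraries 1.90 ± 0.571 (SD, n = 4). The groups overlapped, and the difference of 0.585 was within the spread of libraries (exact two-sided permutation test, p = 0.343, Benjamini-Hochberg 0.686 over 12 tests, smallest possible p = 0.0286). Replicates count as separate units in this test, so its p-value holds for libraries and not for populations.

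The Hoxc4 side of the cluster was where the E12.5 islands left gaps. Hoxc4 is the most anterior gene of the cluster, and Hoxc5 and Hoxc6 stand next to it in gene order. At E12.5 the main islands stopped at 102843600 and 102844000, and after a gap of 1.6 and 1.2 kb a further island ran to 102860000 in replicate 1 and to 102863000 in replicate 2. Replicate 1 had no further island inside the window, and replicate 2 had one from 102867401 to 102873800. In the 6 later libraries the stretch between, 4.4 kb from 102863001 to 102867400, was covered in full. So was the gap of 1.2 kb from 102844001 to 102845200, a width that is the smallest between neighbouring islands in every list. In E14.5, ISC replicate 2 and AE replicate 1 the island over the Hoxc4 end went on beyond the window, to 102879600, 102907400, 102903000 and 102882400. In ISC replicate 1 it went on to 102988000, and in AE replicate 2 the last island ended at 102877400. Every later library was thus covered without a break from 102854401 to the end of the window, and neither E12.5 library was. Just before that point AE replicate 2 had a gap of 2.2 kb (102852201 to 102854400), so gaps on this side were not limited to E12.5.

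Enrichment was also lower toward Hoxc4 in 1 of the E12.5 libraries. In replicate 2 the islands over the cluster, from the Hoxc13 to the Hoxc4 side, had folds of 4.67 (4.46 to 4.88), 3.57 (3.17 to 4.02) and 1.97 (1.56 to 2.49), and none of the intervals overlapped. The last of these islands ran from 102867401 to 102873800, so part of it lay beyond the cluster part, which ends at 102870000. In replicate 1 the corresponding 2 islands had folds of 2.01 (1.90 to 2.12) and 1.91 (1.65 to 2.21), whose intervals overlapped. AE replicate 2 had 2.52 (2.28 to 2.80), 2.43 (2.29 to 2.59) and 2.12 (1.88 to 2.41) along the same direction, also with overlaps. ISC replicate 2 had 2.36 (2.16 to 2.58) and 2.32 (2.21 to 2.44). Islands that span the whole cluster, as in the other 4 libraries, give 1 value and no such profile.

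On the side of the posterior genes, which start with Hoxc13, the cluster part was covered in all 8 libraries from its first base to 102774400. Hoxc13 is known for its role in hair and nail, and Hoxc10 and Hoxc11 for the hindlimb and the lumbar and sacral level. The first break was 1.2 kb wide, from 102774401 to 102775600, and occurred in ISC replicate 2 and AE replicate 2. In each of the 8 lists the smallest gap between neighbouring islands anywhere was 1200 bp, so this break was of the smallest size that occurs. Together with a gap of 2.2 kb (102852201 to 102854400) it split the cluster of AE replicate 2 into 3 islands.

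The extent of the main island did not part embryonic from adult libraries. Its border on the Hoxc13 side lay 39.9 ± 19.9 kb (SD, n = 4) into the flank in embryonic libraries and 2.80 ± 32.8 kb (SD, n = 4) into it in adult libraries (exact two-sided permutation test, p = 0.171, Benjamini-Hochberg 0.686). In ISC replicate 2 and AE replicate 2 the main island began 25.6 kb inside the cluster part, after the break of 1.2 kb, although the next island ran on into the flank. With islands joined over gaps of up to 2 kb, the embryonic border minus the adult one went from -37.1 to -5.20 kb (exact two-sided permutation test, p = 0.886). Its border on the Hoxc4 side lay 119 ± 30.9 kb (SD, n = 4) and 156 ± 58.3 kb (SD, n = 4) beyond the line between flank and cluster (exact two-sided permutation test, p = 0.286, Benjamini-Hochberg 0.686), a difference of -37.8 kb that was -10.6 kb without ISC replicate 1. Its length was 159 ± 45.2 kb and 159 ± 82.0 kb (SD, n = 4 each, exact two-sided permutation test, p = 0.971, Benjamini-Hochberg 1.0). Cluster coverage was 96.4 ± 4.61% and 99.0 ± 1.34% (SD, n = 4 each, exact two-sided permutation test, p = 0.429, Benjamini-Hochberg 0.735). Over all lists, 0.380% of called windows were called in all embryonic and no adult libraries and 1.20% in all adult and no embryonic ones. In the window neither could occur, since every position was called in at least 1 embryonic and at least 1 adult library.

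The flank, beyond the Hoxc13 end, varied far more than the cluster. The E12.5 libraries covered 43.4% and 59.1% of it, and the E14.5 libraries 96.9% and 97.4%. The ISC libraries covered 96.3% and 56.0%, and the AE libraries 64.6% and 50.3%. The order of the populations by mean was E14.5 (97.1 ± 0.404%), ISC (76.1 ± 28.5%), AE (57.4 ± 10.1%) and E12.5 (51.3 ± 11.1%, SD, n = 2 each). Both E14.5 values lay above both ISC values, though ISC replicate 1 came close. With all lists cut to equal covered length, ISC replicate 1 covered 78.6%, beside 96.9% and 97.4% at E14.5. ISC and AE overlapped, as did AE and E12.5. All embryonic libraries averaged 74.2 ± 27.2% and all adult ones 66.8 ± 20.5% (SD, n = 4 each), a difference of 7.43 percentage points that lay within the spread (exact two-sided permutation test, p = 0.771, Benjamini-Hochberg 1.0). Its sign turned without E14.5 replicate 1 (-0.119) or E14.5 replicate 2 (-0.310).

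**Figure D3:**
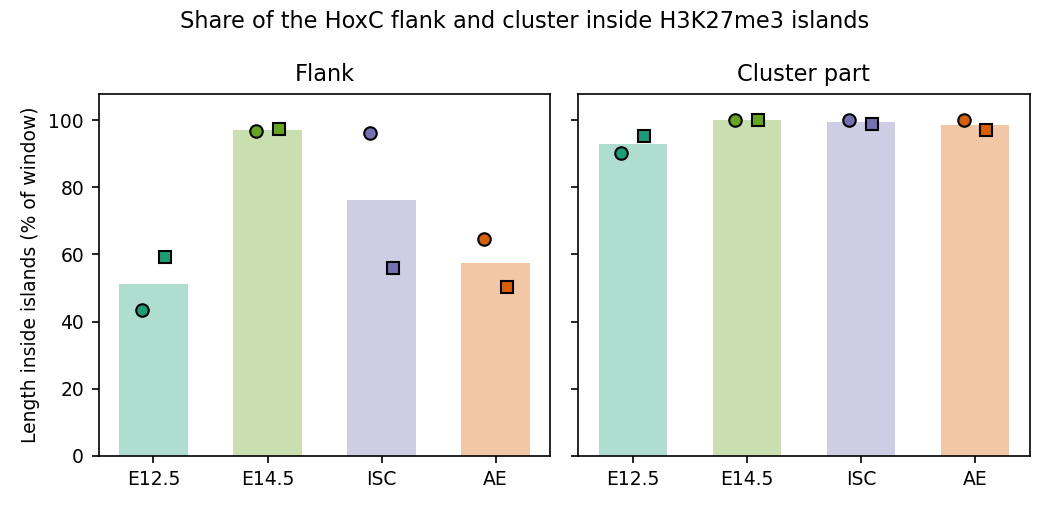
Share of the flank (left) and of the cluster part (right) inside islands, in percent; circles are replicate 1, squares replicate 2 and bars the means of 2. The cluster values sit between 90.3% and 100%, while the flank values run from 43.4% (E12.5 replicate 1) up to 97.4% (E14.5 replicate 2).

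Both flank and cluster part were covered further at E14.5 than at E12.5. The E12.5 values lay below both E14.5 values. ChIP reads inside islands were also fewer in the E12.5 libraries (1171968 and 2114128) than in the E14.5 libraries (3020599 and 2999884). The part of this in the difference was not tested. The mean of E12.5 minus that of E14.5 was -45.9 percentage points in the flank and -7.17 points in the cluster part. With 2 libraries against 2 the exact two-sided permutation test cannot go below p = 0.333, which both comparisons reached (Benjamini-Hochberg 0.686). Of the flank, 24.2 kb, or 34.6% of its windows, were called in both E14.5 and in no E12.5 library, and of the cluster part 5.6 kb, or 4.67%. Over all lists this share was 9.56%. That background depends on single libraries. It was 33.3% without E14.5 replicate 1, beside 35.5% of the flank, and 22.6% without E14.5 replicate 2, beside 37.1%. It was 13.5% without E12.5 replicate 1, beside 38.3%, and 21.8% without E12.5 replicate 2, beside 50.9%. The share of the flank was thus the higher one each time, but by little without E14.5 replicate 1. The cluster part gained 4.67% or, without E12.5 replicate 2, 9.67%. Its 5.6 kb was all that both E12.5 libraries left uncovered. A loss at this step, 1.36% of called windows over all lists, could not occur in the window, since the E14.5 libraries together covered all of it. The flank gain was made up of 20.0 kb (102687601 to 102707600), 1.0 kb (102709401 to 102710400) and 3.2 kb (102720801 to 102724000).

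What was gained at E14.5 was kept unevenly in the adult libraries. Of the 20.0 kb stretch far from the cluster, ISC replicate 1 covered 93.0%, ISC replicate 2 26.0%, AE replicate 1 24.0% and AE replicate 2 47.0%. Of the 3.2 kb stretch nearer the cluster, both ISC libraries and AE replicate 1 covered 100% and AE replicate 2 93.8%. The stretches on the Hoxc4 side, of 4.4 and 1.2 kb, were covered in full in all 4 adult libraries. Positions called in no E12.5 and in all 6 later libraries came to pieces of 0.6 and 3.0 kb in the flank and of 1.2 and 4.4 kb in the cluster part. The larger ones thus bordered the domain that E12.5 already had, and only the 0.6 kb piece (102692201 to 102692800) lay apart from it.

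At the later steps the cluster part had no room for a gain or a loss, since both E14.5 libraries, ISC replicate 1 and AE replicate 1 covered 100% of it. Its counts of 0 therefore say nothing of stability. In the flank a gain from E14.5 to ISC could not occur either. The loss there was 2.6 kb, or 3.71% of its windows, which is all that the ISC libraries left uncovered together. Over all lists 4.14% were lost and 5.97% gained at that step. Without ISC replicate 1 the loss was 27.4 kb, or 39.1%, of the flank, beside 20.5% over all lists. It stayed at 3.71% without E14.5 replicate 1, E14.5 replicate 2 or ISC replicate 2, beside 13.1%, 8.59% and 4.62%. The flank thus lay above the background at this step only without ISC replicate 1. From ISC to AE, 6.0 kb of the flank, or 8.57%, was lost, and none of the 2.6 kb in which a gain was possible was gained. Over all lists 4.19% of windows were lost and 0.921% gained at that step. Without ISC replicate 1 the loss was 9.84% of the flank beside 14.1% over all lists, and without ISC replicate 2 it was 21.4% beside 54.0%. Without AE replicate 1 it was 20.6% beside 6.60%, and without AE replicate 2 14.3% beside 6.73%. Whether the flank lay above or below the background at this step thus turned on single libraries. Flank coverage differed by 21.0 points between E14.5 and ISC (exact two-sided permutation test, p = 0.333, the smallest possible, Benjamini-Hochberg 0.686). That difference was 0.857 points without ISC replicate 2 and 41.1 points without ISC replicate 1. Between ISC and AE it differed by 18.7 points (exact two-sided permutation test, p = 0.667, Benjamini-Hochberg 1.0), and by -1.43 points without ISC replicate 1. For the cluster part these differences were 0.500 and 0.917 points (exact two-sided permutation test, p = 1.0 for each).

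The islands that lay only in the flank had lower folds than the islands that reached the cluster part. This split depends on the calling itself, since flank signal that joined an island over the cluster counts with the cluster. In E14.5 replicate 1 that island began at 102682201 and took in nearly the whole flank. The values thus describe called islands and do not compare the enrichment of the flank as a whole with that of the cluster. Reads were summed over the islands that lay outside the cluster part and over those that reached it. At E12.5 the flank fold was 1.64 (1.23 to 2.17) in replicate 1, beside a cluster fold of 1.99 (1.90 to 2.10), and 1.49 (1.28 to 1.74) in replicate 2, beside 4.40 (4.23 to 4.59). E14.5 replicate 2 had a flank fold of 1.78 (1.63 to 1.94) and a cluster fold of 5.37 (5.19 to 5.56). ISC replicate 1 had 2.13 (2.04 to 2.23) and 4.03 (3.91 to 4.16), and ISC replicate 2 had 1.55 (1.36 to 1.76) and 2.33 (2.23 to 2.43). In the AE libraries they were 1.53 (1.29 to 1.82) and 2.36 (2.26 to 2.46), and 1.72 (1.51 to 1.95) and 2.40 (2.29 to 2.52). The flank value was the lower one in all 7 lists that had such islands, and the intervals were apart in 6, the exception being E12.5 replicate 1. E14.5 replicate 1 had 1 island over flank and cluster together, with a fold of 3.85. The flank fold was between 0.332 (E14.5 replicate 2) and 0.820 (E12.5 replicate 1) of the cluster fold.

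**Figure D4:**
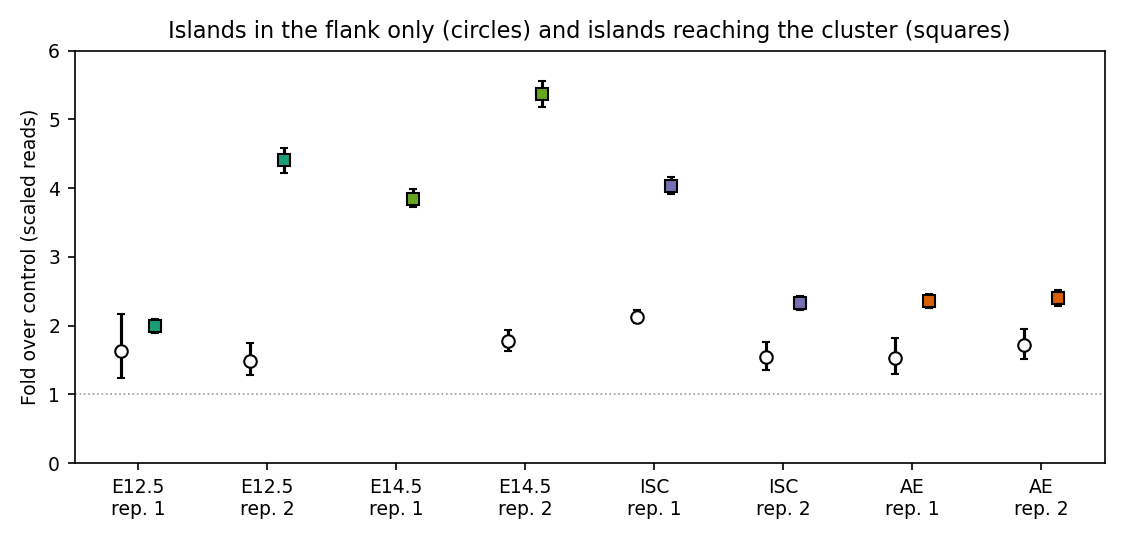
Fold over control of the islands that lie outside the cluster part (circles) and of those that reach it (squares), from summed reads, with 95% exact counting intervals, for each library. Circles sit at 1.49 to 2.13 and each lies below the square of its library, and E14.5 replicate 1 has no island in the flank only.

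Control reads, summed over the islands of a library, were also thinner over the flank islands than over the cluster islands. They came to 13.3 and 15.0 per kb of flank islands against 17.6 and 18.8 per kb of cluster islands in AE, and to 18.1 to 20.4 against 20.5 to 22.2 per kb in the 5 other lists with flank islands. Single flank islands did not all have thinner control reads than the main island of their library. The fold already divides by these reads. The flank islands rest on few of them, 105 to 1025 control reads per library, except for 3253 in ISC replicate 1. The cluster islands rest on 2461 to 5571. In E14.5 replicate 2 and ISC replicate 1 the flank islands went on beyond the window, to 102654401 and 102552201. In E12.5 replicate 2 an island began at 102678601. With these left out, the flank value was still the lower one in all 6 lists that kept a flank island.

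The islands of the flank did not sit at the same place in all libraries. In the AE libraries, islands of 4.8 kb from 102690801 and of 4.8 kb from 102692201 overlapped for 3.4 kb and had folds of 1.88 (1.38 to 2.58) and 2.01 (1.45 to 2.82). An ISC replicate 2 island from 102681601 to 102692800 had a fold of 1.38 (1.13 to 1.68). All 11.2 kb of it lay inside a longer ISC replicate 1 island with a fold of 2.16 (2.06 to 2.26). The highest flank fold of ISC replicate 2, 2.25 (1.69 to 3.01), was that of an island from 102728201 to 102733800, near the cluster. At E12.5 the flank islands of the replicates overlapped from 102715601 to 102718200, with folds of 1.64 (1.23 to 2.17) and 1.65 (1.30 to 2.11). E12.5 replicate 2 also had an island from 102678601 to 102687600 with a fold of 1.38 (1.13 to 1.70), where replicate 1 had none.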

How the data were processed

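The ChIP libraries were profiled for H3K27me3. The submitters' processing notes name build mm9, SICER 1.1, Bowtie 1.1.2, SAMtools 1.2 and bcl2fastq 1.8.4. SICER joins neighbouring enriched windows into islands. Each deposited list has no header. From the values, it holds whole-number counts of ChIP and control reads per island, the authors' p-value and false discovery rate (FDR, at most 0.01), and the authors' ratio, the fold over control. Borders fall on a 200 bp grid and are given 1-based. Replicates of a population had the same control reads in all islands with the same borders (17 to 52 a population), so they share a control. All but 1 of these differed in ChIP reads, and each library was counted as a sample of its own.

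Coverage, borders and permutation tests were computed with Python 3.11.15, numpy 2.4.6 and scipy 1.17.1, and checked on simulated lists. Whole lists were painted genome-wide on the grid. A window was gained or lost when all libraries of one group and none of the other called it. Windows called in any library of a comparison are its background. The tests are exact, two-sided and over libraries, with the Benjamini-Hochberg adjustment over 12 tests. Alternatives were an FDR of 1e-10 or less, a fold of 1.5 or more, equal covered length, joining over gaps of up to 2 kb, a border moved by 10 kb, each library left out and a replicate block. The genes named are the 9 Hoxc genes, those listed among them and the nearest protein-coding neighbours, and the islands are all that overlap the window. Members and lists were chosen with earlier results of these data known, and the comparison of flank with cluster folds was added after the data were seen. Gene positions on mm9 were not used here.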

Additional observations from a re-analysis of the deposited data

Results flagged for a closer look

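The fold of the main HoxC island relative to the median fold of its list was 2.76 in ISC replicate 1, against 1.60 to 1.64 in the 3 other adult libraries. It lay far from the other adult values compared with their range, and chance alone flags about 1 in 20 groups. The list of that library covered 241 Mb, against 60.8 to 91.0 Mb in the other adult lists, and the part of this in the value was not tested.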

How the results depend on the processing

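Of the recomputed coverages, borders, lengths and shares, 327 were counted as unchanged, 56 as moved by more than 1.5 times and 8 as changed in sign. Unchanged means no change of sign or of side of the threshold, or a move within 1.5 times. These 327 include lengths of 0 kb where no gain or loss was possible. They also include differences that shrank. Cluster coverage of E14.5 minus ISC went from 0.500 to 0 points without ISC replicate 2. The count is thus no measure of robustness. No test passed the threshold of 0.05 as deposited or under any alternative. For the exact permutation tests of 2 libraries against 2 this was fixed in advance, since their smallest possible p is 0.333. All changes of sign came from leaving out 1 library. The difference in flank coverage between embryonic and adult libraries then ranged from -0.310 to 17.7 points, ISC minus AE from -1.43 to 38.9 points in the flank and from -0.500 to 2.33 points in the cluster part, and the difference in main island length from -28.2 to 36.4 kb. E14.5 minus ISC ranged from 0.857 to 41.1 points in the flank. With an FDR of 1e-10 or less, a fold of 1.5 or more and equal covered length, embryonic minus adult flank coverage was 18.3, 18.2 and 11.9 points. Joining over gaps of up to 2 kb moved embryonic minus adult from -37.1 to -5.20 kb for the Hoxc13-side border and from -0.650 to -22.9 kb for the length. With the replicate number as a replicate block the difference in flank coverage (7.43 points) had an exact permutation p of 0.722, and no call changed. Whether equal replicate numbers mark libraries made together is not known. Over all called windows, replicate 1 minus replicate 2 correlated between populations at -0.0336 to 0.0266, which cannot settle it.

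The flank length gained from E12.5 to E14.5 was 40.0 kb with an FDR of 1e-10 or less. The flank length lost from E14.5 to ISC was 13.2 kb at equal covered length and 0 kb after joining over 2 kb, an alternative chosen for these lengths after seeing the data, and that lost from ISC to AE was 0 kb with an FDR of 1e-10 or less or a fold of 1.5 or more. With a fold of 1.5 or more, 1.2 kb of the 70 kb flank was in all embryonic and no adult libraries, beside 0.364% of called windows over all lists. At that setting 3.84% of called windows over all lists were lost from ISC to AE. With 1 library left out, the cluster length gained from E12.5 to E14.5 ranged from 5.6 to 11.6 kb, that lost from E14.5 to ISC from 0 to 1.2 kb and that lost from ISC to AE from 0 to 2.2 kb. In the flank, E14.5 to ISC gave 0 to 0.6 kb gained and 2.6 to 27.4 kb lost, ISC to AE 0 to 4.2 kb gained and 6.0 to 15.0 kb lost, and embryonic to adult 0 to 1.2 kb lost.

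The background shares over all lists moved more. With an FDR of 1e-10 or less, E12.5 to E14.5 gave 18.1% gained and 0.0836% lost, E14.5 to ISC 2.06% gained, ISC to AE 0.509% gained and 1.55% lost, and embryonic to adult 0.178% lost. With a fold of 1.5 or more, 0.353% was lost from E12.5 to E14.5, 3.49% gained and 6.27% lost from E14.5 to ISC, and 0.725% gained from embryonic to adult. At equal covered length, 2.04% was lost from E12.5 to E14.5, 11.3% lost from E14.5 to ISC, 4.25% gained from ISC to AE, 1.03% lost from embryonic to adult, and 4.62% covered in all 8 libraries. With 1 library left out, gains and losses ranged from 13.5 to 33.3% and 1.67 to 21.3% (E12.5 to E14.5), 6.72 to 56.3% and 4.62 to 20.5% (E14.5 to ISC), 1.14 to 11.9% and 6.60 to 54.0% (ISC to AE), and 1.32 to 3.08% and 0.413 to 1.38% (embryonic to adult). Leaving out a library lets the remaining one of its group decide alone. The causes of the other changes were not tested. The total depth of the libraries is unknown, so a stretch outside islands cannot be told from one below the limit of detection.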
